A study of Mus musculus with 10 samples.

Results

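The ribosomal proteins of the cytosol were measured in M-1 cells, a mouse line derived from the cortical collecting duct of the kidney, with or without the synthetic glucocorticoid dexamethasone, given for 3 h at 100 nM. The set holds every clone of the spotted cDNA array that carries 1 gene symbol in the platform annotation and whose symbol names a large subunit (Rpl) or small subunit (Rps) protein, with Rplp0, Rplp1, Rplp2 and Rpsa. These were 180 of the 15600 clones. They stand for 73 genes, with 116 clones of 47 genes in the large subunit and 64 clones of 26 genes in the small subunit. The rule goes by symbol and so also takes in paralogues such as Rpl7l1, Rpl22l1, Rpl39l and Rps27l, counted with the subunit of their symbol. Another 15 clones that name a ribosomal protein beside other symbols were left out. Each clone was printed as 2 spots, so the set covers 360 of 31200 spots. For 49 genes there were 2 or more clones, for 30 genes 3 or more, and Rpl4 and Rpl7 had 8 each. All 73 symbols were found in the RefSeq gene table.

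RNA of dexamethasone-treated cells was labelled with Cy5 in 3 channels and hybridised against Cy3-labelled RNA of cells kept in steroid-free medium, which gives 3 treated pairs. In 2 further pairs both dyes carried RNA titled as control. The dyes were never swapped, and no array holds both a treated and an all-control pair, so treatment, dye and array cannot be told apart. The titles set the groups, although for 5 of the 7 control channels the treatment field mentions dexamethasone. The labels do not tie replicates to separate cultures, so a p-value here speaks of the spread between these samples alone, which may be technical. M-1 is 1 line, and bulk RNA of a dish cannot separate fewer cells of a kind from less RNA per cell.

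A cytosolic ribosome is built from a large subunit, which forms peptide bonds, and a small subunit, which reads the mRNA. Their proteins are encoded mostly by single-copy genes beside many processed pseudogenes, and a cDNA spot cannot tell transcripts of near-identical sequence apart. The mRNAs of ribosomal proteins are among the most abundant of a growing cell and start with a terminal oligopyrimidine (TOP) tract, through which their translation responds to growth signals. Glucocorticoids act through a receptor that binds DNA and alters transcription, which is the step an array of steady-state RNA can show.

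The promoters show the sequence context these genes share. RefSeq windows of 300 bases (build GRCm38.p6, 250 before to 50 after the start) were matched for 59 of the 73 genes, in 70 windows. The letters CTTTC, the core of a TOP start, lay on the coding strand within 25 bases of the start in 18 of 70 windows (25.7%), against 6.75% of all 32851 windows. On the other strand the same letters lay in 7.14% and 6.10%. The letters TTCCGG, on either strand, lay in 50% of these windows and in 14.9% of all. The palindromic glucocorticoid response element (AGAACA, 3 bases of any kind, then TGTTCT) lay in 0 of 70 windows and in 3 of all windows, and its AGAACA part, on either strand, in 12.9% against 19.0%. A match is only a match of letters in this window. The 75 bases around the start (50 before it) of 5 genes whose clones are described below are printed 5′ to 3′ on the coding strand, with matches to CTTTC or to TTCCGG, also as its reverse complement CCGGAA, in capitals.
Rpsa, chr9:120127716-120127790, plus strand: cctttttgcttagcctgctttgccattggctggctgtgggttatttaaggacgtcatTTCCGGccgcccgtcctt
Rps13, chr7:116334166-116334240, minus strand: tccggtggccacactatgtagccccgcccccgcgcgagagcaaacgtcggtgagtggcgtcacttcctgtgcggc
Rps9, chr7:3703991-3704065, plus strand: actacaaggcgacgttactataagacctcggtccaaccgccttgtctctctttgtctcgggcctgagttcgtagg
Rps10, chr17:27635220-27635294, minus strand: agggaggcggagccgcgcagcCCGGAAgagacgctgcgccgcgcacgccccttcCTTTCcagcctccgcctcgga
Rpl6, chr5:121204451-121204525, plus strand: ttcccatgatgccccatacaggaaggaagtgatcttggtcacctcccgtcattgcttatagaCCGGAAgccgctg

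The measure throughout is the log2 ratio of Cy5 to Cy3, centred along intensity. The treated arrays list 3778, 3994 and 4002 of the 31200 spots, those whose ratio lies outside an empty band around the centre. A spot is called listed higher or lower by the side of that band on which it lies. A clone that is not listed has no measured fold. The smallest centred ratio listed was 0.29, 0.48 and 0.27 on treated pairs 1, 2 and 3 (log2). The ribosomal protein clones were bright. Their median spot intensity was 4700 in Cy3 and 7495.5 in Cy5 of control pair 1, and 16670 and 14771 in control pair 2, where the medians of all spots were 488, 327, 867 and 1076. Of the 180 clones 110 belonged to the brightest 2% of the array. Of 21 listed collecting duct genes 9 were measured: Gata3, Tfcp2l1, Krt8, Krt18, Krt19, Cdh1, Epcam, Cldn7 and Slc4a1. Of these 6 lay above the 75th percentile of intensity in all 4 control channels. That held for 1 of 6 measured fibroblast, 0 of 4 leukocyte and endothelial and 0 of 2 proximal tubule genes. The only other epithelium listed was the proximal tubule, so these counts do not set collecting duct cells apart from other epithelia. Aqp2 and the Scnn1 sodium channel subunits were on the list but not among the 9 measured. On the treated arrays these lists had 5 spots higher and 0 lower, 2 and 3, 0 and 1, and 1 and 1, in the same order.

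Most ribosomal protein clones had no value on the treated arrays. Of the 180 clones 63 (35%) were listed on any of them, against 51.8% of all clones, and 117 were listed on none. Bright clones were listed less often in general, with 40.5% between the 90th and 98th percentile against 54.9% of the dimmer lower 50%. Of the 312 clones in the brightest 2%, 36.2% were listed. Of these 312, 110 are the ribosomal protein clones themselves, which lower that share, so it is not a separate background for them. Within the brightest 2% the ribosomal protein clones were listed in 26.4%, and between the 90th and 98th percentile in 43.9% of 57 clones, where all clones there gave 40.5%. The 10 ribosomal protein clones between the 50th and 90th percentile went the other way, with 8 listed (80%) against 51.0% of all clones there. By direction, 33 clones (18.3%) had more higher than lower spots, 28 (15.6%) had more lower than higher spots, and 2 were even. Over all clones these shares were 24.2% and 23.2%. On 2 or more treated arrays 11 clones (6.11%) were listed, against 13.7% of all, and 1 of them on all 3, against 1.38% of all. Higher each time were 4 clones (2.22% of the 180), against 4.21% of all clones, and lower each time were 3 (1.67%), against 4.2%. The other 4 of these 11 clones were listed both ways. Over all clones 2140 were listed on 2 or more treated arrays, 657 higher each time and 655 lower each time, and the rest both ways.

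No ribosomal protein clone passed limma. A value in all 5 pairs was available for 213 clones, and among them 0 (0%) were higher and 1 (0.469%) lower at an adjusted p under 0.05 by limma with Benjamini-Hochberg adjustment. The 1 ribosomal protein clone among the 213, an Rpsa clone, was not called. Of the 8080 clones with at least 1 treated value, 8065 had enough values for limma. Among these 0 (0%) were higher and 1 (0.0124%) was lower. Of 63 ribosomal protein clones 0 were called, with adjusted p from 0.145 to 0.995. At an unadjusted p under 0.05 stood 14 of the 63 (22.2%), 5 higher and 9 lower, against 32.2% of all clones in that fit. Listing keeps outlying ratios alone, so these unadjusted p-values run low. The median difference of the 63 clones, treated minus control, was 0.01 (log2), with 33 above 0 and 30 below, where that of all 8065 clones was 0.06.

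Listed spots of the small subunit were mostly higher and those of the large subunit were not. Over the 3 treated arrays 33 small subunit spots were listed higher and 15 lower (68.8% higher), and 21 large subunit spots higher and 28 lower (42.9%). These spots are not independent, since they come from 28 and 35 clones, some of 1 gene. With 1 clone per gene the counts were 8 higher and 4 lower for the small subunit and 8 and 11 for the large. Over all spots 50.6% were higher. By array, the small subunit had 9 higher and 5 lower on treated pair 1, 11 and 1 on pair 2, and 13 and 9 on pair 3. The large subunit had 8 and 9, 6 and 11, and 7 and 8. Over the 3 arrays 12.5% of small subunit and 7.04% of large subunit spots were listed, against 12.6% of all spots. On pairs 1 to 3 the small subunit had 10.9%, 9.38% and 17.2% listed and the large subunit 7.33%, 7.33% and 6.47%. All spots gave 12.1%, 12.8% and 12.8%. Of all spots on the array 6.38% were higher and 5.73% lower on pair 1. These shares were 6.17% and 6.63% on pair 2, and 6.53% and 6.3% on pair 3. The small subunit share exceeded the large subunit share by 17.2, 56.4 and 12.4 percentage points, a mean of 28.7 ± 24.1 (SD, n = 3). An exact sign-flip permutation test over the 3 arrays gave a two-sided p of 0.25, the smallest it can give. With so few arrays the test cannot decide, here or with clones left out below. A larger p there is not read as a loss of the difference. The order on pair 1 rests on Rpsa: without its 7 clones the small subunit had 1 spot higher and 5 lower there, 8 and 0 on pair 2 and 11 and 8 on pair 3, and the difference on pair 1 was -30.4 percentage points (mean over pairs 15.2 ± 47.7, SD, n = 3, exact permutation p = 0.75). With each array centred on its median in place of the band, the split was 27 higher and 21 lower for the small subunit and 20 and 29 for the large.

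**Figure D1:**
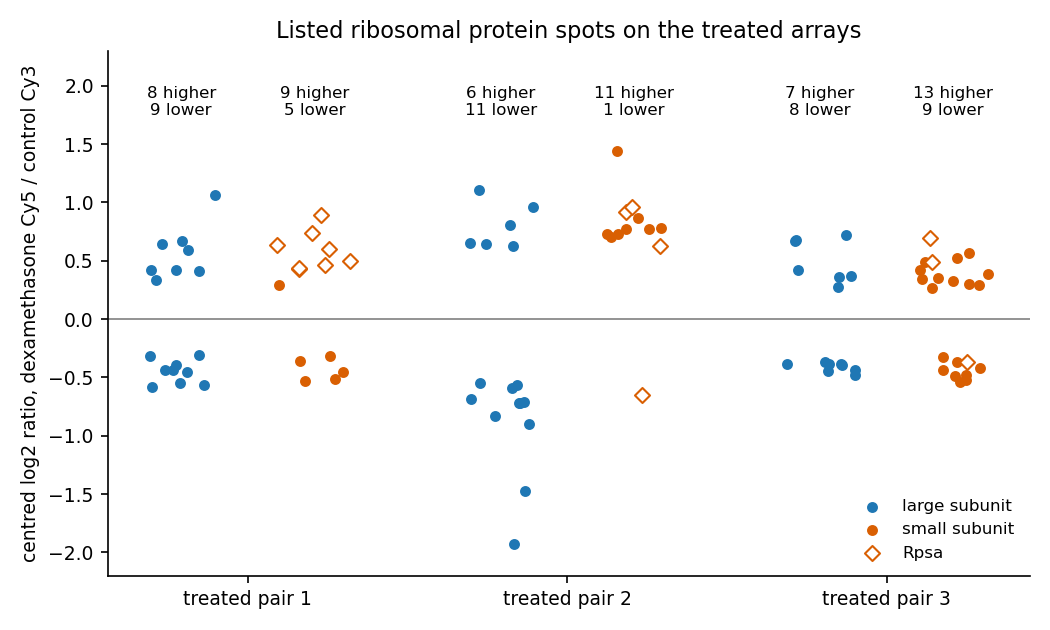
Centred log2 ratio (dexamethasone Cy5 over control Cy3) of each listed ribosomal protein spot on treated pairs 1 to 3, large subunit in blue and small subunit in orange, with Rpsa spots as open diamonds and the counts of spots above each group. No spot lies near 0 because the treated arrays list outlying ratios alone, and the small subunit has 9, 11 and 13 spots higher against 8, 6 and 7 for the large subunit.

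The control pairs did not show this order of the subunits each time. Taking control spots whose ratio was at least as large as the mean edge of the treated bands at the same intensity, control pair 1 had 35 large subunit spots higher in Cy5 and 8 lower, and 13 and 10 for the small subunit. Control pair 2 had 18 and 10 for the large subunit and 14 and 4 for the small. Spots higher in Cy5 thus outnumbered lower ones in both subunits and both control pairs. The large subunit had the higher share in pair 1 and the small subunit in pair 2. Of all ribosomal protein spots past that edge 72.7% and 69.6% were higher in control pairs 1 and 2, against 50.9% and 46.3% over all spots. On the treated arrays 55.7% of the listed ribosomal protein spots were higher. Past the edge lay 18.3% and 12.8% of ribosomal protein spots in control pairs 1 and 2, against 11.3% and 17.6% of all spots.

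The direction of listing moved with the clone number, which is the order of clones in the deposited table. Where a clone lies on the slide is not given in the sources used here. Among all clones numbered 13001 to 15600, 24.9% of listed spots were higher on treated pair 2 and 17.1% on pair 3, against 54.7% and 59.6% of those numbered 1 to 13000. On pair 1 the shares were 54.2% and 52.4%, but this cut hides a drift there. Over 6 equal parts of the clone order, pair 1 ran from 62.0% (clones 2601 to 5200) to 43.1% (clones 10401 to 13000). The ribosomal proteins followed the split at 13000 on pairs 2 and 3. Their 42 clones numbered above 13000 had 7 spots higher and 27 lower. Among the remaining 138 clones 47 spots were higher and 16 lower (74.6% higher, where all clones in that range gave 55.6%). Between 10401 and 13000 the ribosomal proteins had 10 spots higher and 2 lower, where 42.5% of all listed spots were higher.

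Of the 28 lower large subunit spots, 18 came from the 27 large subunit clones numbered above 13000, which had 1 spot higher. The other 89 large subunit clones had 20 higher and 10 lower (66.7% higher). For the small subunit, 15 clones numbered above 13000 had 6 higher and 9 lower. The remaining 49 clones had 27 spots higher and 6 lower (81.8%). Without the clones numbered above 13000 the small subunit share exceeded the large subunit share by 22.6, 0 and 2.22 percentage points on the 3 arrays (mean 8.26 ± 12.4, SD, n = 3, exact permutation p = 0.5). On treated pair 2 all 16 ribosomal protein spots below that number were higher and 12 of the 13 above it were lower. The part of clone order in the listing of single genes was not tested.

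**Figure D2:**
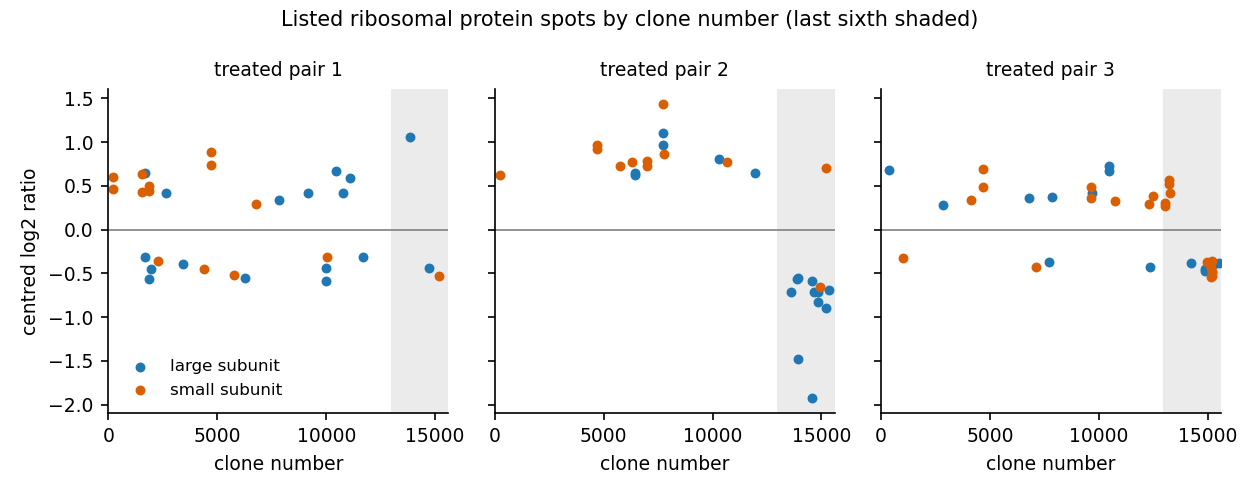
Centred log2 ratio of each listed ribosomal protein spot against clone number, 1 panel per treated pair, large subunit in blue and small subunit in orange, with clones 13001 to 15600 shaded. In the shaded range 1 of 13 spots was higher on pair 2 and 5 of 18 on pair 3.

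Rpsa, a small subunit protein also known as the laminin receptor precursor, was the gene listed most often, with 13 spots higher and 2 lower over its 7 clones. Clone 4698 was the 1 ribosomal protein clone valued in all 5 pairs. Its centred log2 ratio was 0.36 in both control pairs and 0.81, 0.94 and 0.59 in treated pairs 1, 2 and 3. The treated mean was 0.78 ± 0.18 (SD, n = 3), and all 3 treated pairs lay above both control pairs. By limma it exceeded the control pairs by 0.42 (standard error 0.21, adjusted p = 0.313). Its intensities were 852 in Cy3 and 1206.5 in Cy5 of control pair 1 and 2755 and 3168.5 in control pair 2. On the treated arrays they were 606 and 1060, 1278 and 2671, and 2511 and 3730. Control Cy3 thus ran over a wide range across arrays, and the ratio rather than either channel separates treated from control pairs.

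Clone 228 of Rpsa had ratios of -0.16 and -0.05 in the control pairs and 0.53 and 0.63 on treated pairs 1 and 2, and was not listed on pair 3. Its Cy5 intensity was 14998.5 against 10061.5 in Cy3 on pair 1 and 31705 against 17566 on pair 2. The limma difference over clones listed on any treated array was 0.69 (standard error 0.22, adjusted p = 0.145). Clones 1528 and 1853 were listed on pair 1 only, at 0.53 and 0.47, with control pairs at -0.25 and 0.07 and at -0.35 and 0.06. Where listed, these 4 clones lay above their own control pairs. A treated value exists only outside the band, so a treated value past both control pairs, here and for the clones described next, is in large part set by the listing.

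Clone 14956 of Rpsa went the other way. It stood at 0.09 and 0.12 in the control pairs, at -0.65 on treated pair 2 and -0.37 on pair 3, and was not listed on pair 1. Its limma difference was -0.62 (standard error 0.23, adjusted p = 0.146). Its intensity on pair 3 was 21910 in Cy3 and 16753 in Cy5, against 3388.5 and 3154.5 in control pair 2, so its spot was 2.02 log2 units brighter than on the control pairs after scaling of the arrays. With the Cy5 channels alone the difference was 1.36, the opposite sign. It is also the 1 Rpsa clone numbered above 13000. Clones 553 and 9085 were not listed on any treated array.

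**Figure D3:**
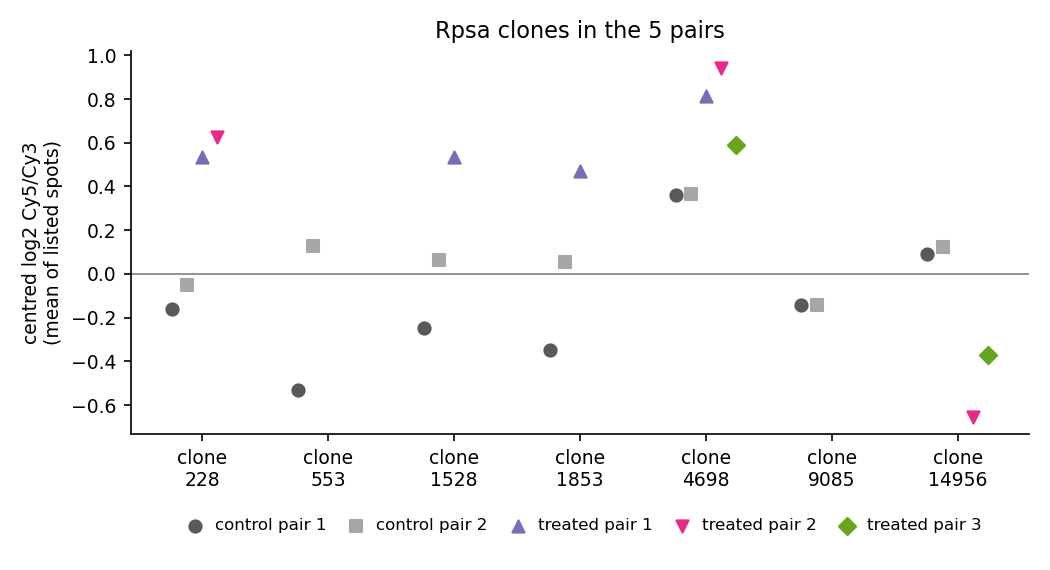
Centred log2 Cy5/Cy3 ratio of the 7 Rpsa clones in the 2 control pairs and, where listed, the 3 treated pairs, as the mean of the listed spots. Clones 228, 1528, 1853 and 4698 lie above their control pairs when listed, clone 14956 lies below, and clones 553 and 9085 have control values only.

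Beside Rpsa, 4 clones were listed on 2 treated arrays with every listed spot on 1 side. Rps13, a small subunit protein, had clone 15179 at 0.33 and 0.54 in the control pairs and at -0.53 and -0.50 on treated pairs 1 and 3. Its intensity was 6119.5 in Cy5 and 3460.5 in Cy3 of control pair 1, 10112 and 8048.5 in control pair 2, 525 and 769 on treated pair 1 and 8561.5 and 12286.5 on treated pair 3. The order of the dyes was thus turned in both treated pairs. The limma difference was -0.95 (standard error 0.22, adjusted p = 0.145). On treated pair 1 its intensity stood at -2.82 log2 units against the control pairs, and its number lies above 13000.

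Rpl3, a large subunit protein near the peptidyl transferase centre, had clone 14859 at -0.16 and -0.54 in the control pairs, at -0.77 on treated pair 2 and -0.46 on pair 3. One treated value lay within the range of the control pairs, and the limma difference was -0.27 (standard error 0.25, adjusted p = 0.414). On treated pair 2 it read 411.5 in Cy3 and 158.5 in Cy5, against 14582.5 and 8643 in control pair 2. Another Rpl3 clone, 11934, was listed higher at 0.64 on pair 2, with control pairs at 0.01 and -0.16. Of the 7 Rpl3 clones these 2 were listed.

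Rpl30, a large subunit protein, had clone 10457 at 0.19 and 0.07 in the control pairs and at 0.67 and 0.70 on treated pairs 1 and 3. It read 656 in Cy5 and 426 in Cy3 on pair 1 and 1443.5 and 859 on pair 3. Both treated values exceeded both control values, with a limma difference of 0.56 (standard error 0.21, adjusted p = 0.148). The second Rpl30 clone was not listed.

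Rpl5, which carries the 5S ribosomal RNA into the large subunit and binds Mdm2, had clone 7840 at -0.03 and 0.52 in the control pairs and at 0.34 and 0.37 on treated pairs 1 and 3. The treated values lay between those of the control pairs, and the limma difference was 0.11 (standard error 0.26, adjusted p = 0.749). It turned to -0.53 with median centring and to -0.17 without control replicate 1. Clones 9140 and 10765 were listed on pair 1, at 0.41 and 0.42. Their control pairs were -0.07 and 0.30, and 0.25 and -0.09. The 3 listed clones of 5 were thus all on the higher side.

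Another 4 clones, named after their values were seen, were listed on 2 treated arrays in opposite directions. Rpl13 clone 7707 stood at 1.03 on treated pair 2 and -0.37 on pair 3, and Rpl28 clone 13862 at 1.06 on pair 1 and -0.57 on pair 2. Rps10 clone 5772 stood at -0.52 on pair 1 and 0.73 on pair 2, and Rps15a clone 15197 at 0.70 on pair 2 and -0.43 on pair 3. All 4 code for structural subunit proteins, and they were picked for their opposite directions. Clones listed both ways were also common over the whole array, as given above, so this is not particular to these genes.

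Some of these values came from spots that were far dimmer on a treated array than on the control pairs. After the arrays were scaled to each other, 12 of the 29 ribosomal protein spots listed on treated pair 2 lay more than 2 log2 units below their intensity on the control pairs, 5 of them higher and 7 lower. On pair 1 this held for 2 of 31 spots and on pair 3 for 0 of 37. Among listed spots of the brightest 2% of all clones the counts were 20 of 57, 3 of 77 and 0 of 64 on pairs 2, 1 and 3. That class holds 110 of the ribosomal protein clones, so its counts are not separate from theirs. Rps27, a zinc finger protein of the small subunit, had clone 7743 at the highest listed ratio of the small subunit, 1.44 on pair 2, where it read 268 in Cy3 and 500 in Cy5 against 41497.5 and 33278 in control pair 2. The Rpl28 clone 13862 read 108 and 199 on pair 1, against 17183 and 15235.5 in control pair 2. The part of these dim spots in single clones was not tested. Without them 30 small subunit spots were higher and 14 lower, and 18 and 21 large subunit spots.

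By gene, 44 of the 73 had a listed spot, against 58.1% of the 7142 genes with a clone of 1 symbol. Listed only higher were 18, against 24.9% of all genes, only lower 17, against 22.6%, and both ways 9. The ribosomal protein genes had 2.47 clones each on average and all genes 1.38, so they had more chances of a listed spot. In the large subunit 27 of 47 genes were listed, 8 only higher, 14 only lower and 5 both, and in the small subunit 17 of 26, with 10, 3 and 4. For 12 genes at least 2 clones were listed, which lets the direction be compared between clones. Rpl5, Rpl15 and Rps9 were only higher and Rpl6 and Rps15 only lower, while Rpl3, Rpl7l1, Rpl29, Rps3, Rps10, Rps15a and Rpsa were listed both ways.

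Rps9, a small subunit protein, had both its clones listed on treated pair 2 at 0.78 and 0.86. Their control pairs were 0.18 and 0.34 for clone 6291 and -0.22 and -0.32 for clone 7780, so both treated values lay above them. Neither clone was listed on pairs 1 and 3, and the intensity of clone 6291 on pair 2 stood at -2.85 log2 units against the control pairs. Both clones are numbered between 5201 and 7800. In that range 76.2% of all spots listed on pair 2 were higher, and the ribosomal proteins had 10 spots higher and 0 lower there. Rpl15, a large subunit protein, had clone 2662 at 0.42 on pair 1 and clone 387 at 0.68 on pair 3.

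Rpl6, a large subunit protein, had all 3 clones listed lower, each on a different treated array. Clone 3415 stood at -0.39 on pair 1 with control pairs at -0.04 and -0.01. Clone 13924 stood at -1.01 on pair 2 with control pairs at 0.54 and 0.09, and was among the dim spots there. Clone 14249 stood at -0.39 on pair 3 with control pairs at 0.48 and 0.20. Each treated value lay below its control pairs, and 2 of the 3 clones are numbered above 13000. Rps15, a small subunit protein, had 3 of 5 clones listed lower, at -0.36 and -0.32 on pair 1 and -0.32 on pair 3. Clone 2261 had control pairs at -0.44 and -0.33, so its treated value lay between them.

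The stalk of the large subunit, where elongation factors dock, is formed by Rplp0 with Rplp1 and Rplp2. Rplp0 had 1 of its 4 clones listed, clone 9672, at 0.42 on treated pair 3 with control pairs at 0.54 and 0.33, so the treated value lay between them. The 3 Rplp1 clones and the 1 Rplp2 clone were not listed. Their control means ran from -0.10 to 0.00 for Rplp1 and stood at -0.03 for Rplp2, and those of Rplp0 ran from 0.09 to 0.43. Other genes with several clones were listed little or not at all. Rpl10 had 0 of 5 clones listed and Rpl31 0 of 4, and Rpl4 and Rpl7 had 1 of 8 each, at -0.44 on pair 1 and 0.64 on pair 2.

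Clones of 1 gene gave different ratios. Over the 156 clones of the 49 genes with at least 2 clones, the SD within a gene was 0.25 in control pair 1, 0.28 in control pair 2 and 0.22 for the mean of both (log2). The SD over all these clones was 0.31, 0.29 and 0.23. The gene means had SDs of 0.25, 0.18 and 0.15, which are lowered by averaging over clones and so are not set against the SD within a gene. The 2 spots of a clone were closer, with an SD of 0.15 in control pair 1 and 0.14 in control pair 2, against 0.28 in both for all clones, which are dimmer. Among the 30 genes with 3 or more clones the control means ranged most widely for Rpl4, from -0.14 to 0.62, followed by Rps16, from -0.20 to 0.49, and Rps3a1, from -0.16 to 0.52. They ranged least for Rpl35, from -0.17 to -0.13. On the treated arrays, a pair of clones of 1 gene was listed on the same array 19 times, 12 times on the same side and 7 times on opposite sides. Without Rpsa these were 9 pairs, 5 on the same side and 4 opposite. Over all named genes 396 of 662 such pairs were on the same side. Where both spots of a ribosomal protein clone were listed they lay on the same side in 5 of 5, 7 of 7 and 10 of 10 cases on treated pairs 1 to 3. Over all clones this held in 344 of 397, 394 of 464 and 443 of 477 cases. Only 1 spot was listed for 21, 15 and 17 ribosomal protein clones, and for 2984, 3066 and 3048 of all clones.

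With control RNA in both channels, the centred ratios of ribosomal protein clones were small in the median. The centring brings the ratios of spots of like intensity near 0, and these clones were among the spots it was fitted on. How far they set the curve was not tested. The median over the 180 clones was 0.08 in control pair 1 and 0.02 in control pair 2, and that of their mean was 0.06 with an SD of 0.23 over clones. By subunit the medians were 0.11 and -0.01 for the large subunit and -0.03 and 0.06 for the small. The 2 control pairs thus placed the subunits in opposite orders. Above 0 in both pairs were 61 clones, below 0 in both were 41, and 78 had opposite signs. In the limma test of Cy5 against Cy3 in the control pairs, over 15561 clones, 5 (0.0321%) were higher and 45 (0.289%) lower at an adjusted p under 0.05, and 0 of 180 ribosomal protein clones were called. At an unadjusted p under 0.05 there were 22 (12.2%), 17 above and 5 below 0, against 8.68% of all. Rps25, a small subunit protein, had the highest mean ratio, 0.66 for clone 10972, with 0.96 and 0.36 in the pairs. Without intensity-dependent centring the medians of the means were 0.28 and 0.27 for the large and small subunit with median centring, and 0.21 and 0.20 with none. In control pair 1 the median over spots of ribosomal protein clones numbered 228 to 2569 was -0.25 and that of those numbered 13040 to 15538 was 0.29, while control pair 2 gave 0.06 and 0.04. Over all spots of clones 1 to 2600 and 13001 to 15600 the medians in control pair 1 were -0.066 and -0.0068. The ribosomal protein clones of the last range were thus higher in control pair 1, opposite to their direction on treated pairs 2 and 3.

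**Figure D4:**
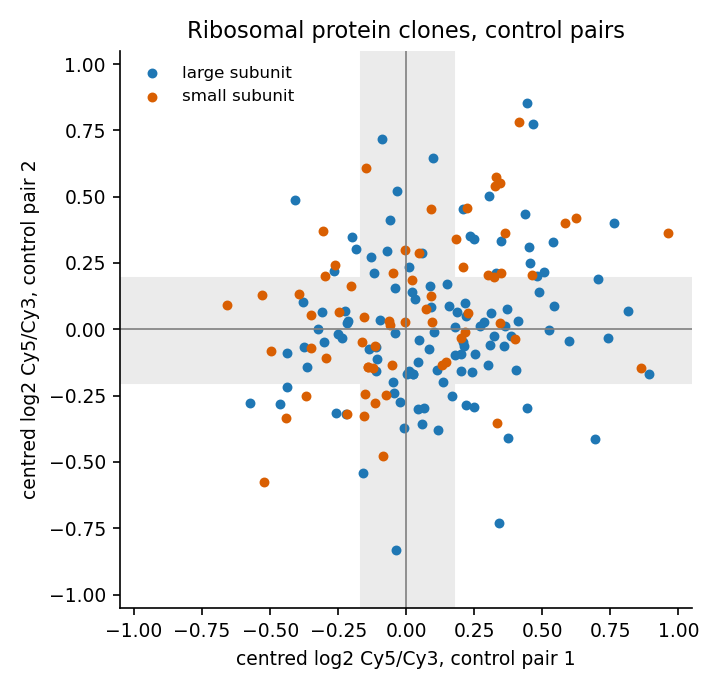
Centred log2 Cy5/Cy3 ratio of the 180 ribosomal protein clones in control pair 1 (x axis) and control pair 2 (y axis), large subunit in blue and small subunit in orange, with the middle 50% of all clones shaded. Of the 180 clones 78 have opposite signs in the pairs.

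Most listed spots of translation factors were higher. Of 64 clones of 17 translation factors and other genes with TOP mRNAs, 40 (62.5%) were listed, against 35% of the ribosomal protein clones and 51.8% of all clones. They had 72 spots higher and 11 lower, with 36 and 1 on treated pair 1, 20 and 4 on pair 2 and 16 and 6 on pair 3. These spots are not independent, since many come from several clones of 1 gene. By gene, 9 of the 17 had more higher than lower spots and 2, Eef1b2 and Naca, had a lower spot only. The others were not listed. In clones numbered up to 13000 the counts were 62 and 6, and above it 10 and 5. At the same size of ratio the control pairs gave 12 higher and 17 lower, and 6 and 9. The list was led by Eef1a1, which brings aminoacyl-tRNA to the ribosome, with 22 higher and 5 lower over 17 clones, Eef1g, a subunit of its exchange factor, with 12 and 1, and Eef2, the translocation factor, with 9 and 2. Eif4a1, the helicase of initiation, and its partner Eif4b had 7 and 0 each, and Hnrnpa1, an RNA-binding protein with a TOP mRNA, had 6 and 0. The list is not made of subunit proteins, and the difference between it and the ribosomal proteins was not tested.

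Of the ribosome biogenesis genes, which process ribosomal RNA and assemble the subunits, 28 of 33 had a named clone. They had 13 spots higher and 11 lower, with 2 and 3, 8 and 3, and 3 and 5 on treated pairs 1 to 3, and the control pairs gave 12 and 2, and 3 and 7. Fau, which codes for the small subunit protein eS30 fused to a ubiquitin-like protein and is outside the symbol rule, had 3 spots higher and 0 lower, 1 on each treated array, all in clone 7947 of its 4 clones. That clone stood at 0.68, 0.82 and 0.69 on treated pairs 1 to 3 and at 0.09 in control pair 1, and had no value in control pair 2.

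**Figure D5:**
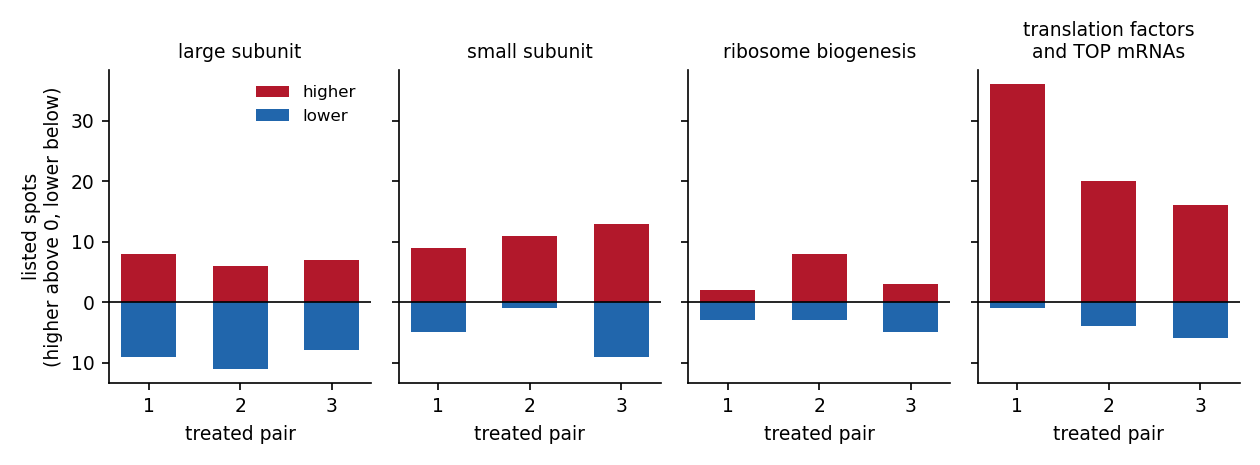
Number of listed spots higher (red, above 0) and lower (blue, below 0) on treated pairs 1 to 3 for the large subunit, the small subunit, ribosome biogenesis genes, and translation factors with other TOP mRNAs. The last group has 36, 20 and 16 spots higher against 1, 4 and 6 lower, and the large subunit 8, 6 and 7 against 9, 11 and 8.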

How the data were processed

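Two-colour cDNA array data of 10 channels were used. The values the authors deposited are linear spot intensities in whole numbers, 1 column per channel, quantified in Imagene 4.0 per the series' design text. The sources used here do not give the background correction, the normalisation or the filter that shortened the treated arrays. Each spot's log2 Cy5/Cy3 ratio was taken from the intensities as they stand. On the control pairs a lowess curve along intensity (statsmodels 0.14.6, span 0.2) was subtracted. Treated arrays were centred on the midpoint of their empty band, found in windows of 150 spots and smoothed with a span of 0.3, because lowess is biased by the missing middle. Spots of a clone were averaged, and limma 3.58.1 in R 4.3.3 (statmod 1.5.0) compared treated with control pairs with Benjamini-Hochberg adjustment. The limma fit was tested on simulated data with every spot present. On simulated arrays cut to outlying ratios only the centring had to pass, so limma on arrays like these was not checked. The treated arrays keep outlying ratios and the control pairs keep every ratio, which can enlarge treated ratios and narrow their SD. The number of arrays limits the precision. Treated and control channels were joined by the array number in their titles, and the channels of the control pairs by their control number, so the ratio itself holds the pairing.

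Named clones had a value in all 5 pairs or were listed on at least 2 treated arrays on 1 side, genes with 3 or more clones were given by their range, and Rpsa and the stalk genes were always described. Gene symbols came from the platform annotation, in which 9866 clones have 1 symbol, 274 several and 5460 none. The members and the gene lists were chosen with earlier results of these data known. Alternatives were other centrings, a value of 50 added, an intensity filter, single dyes, other pairings, 1 clone per gene and leaving out each replicate. Leaving out dim spots, Rpsa or clones numbered above 13000, and lowess within 6 equal parts of the clone order, were chosen after seeing the data. So was the limma fit over the clones with at least 1 treated value and enough values to fit.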

Additional observations from a re-analysis of the deposited data

How the results depend on the processing

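The limma counts of 0 clones higher and 1 lower were 3 and 0 with the Cy5 channels alone. With the Cy3 channels alone they were 17 and 0, but every Cy3 channel holds control RNA, so this compares arrays and not the treatment. The lower count was 0 with no replicate block (10 channels fitted separately), 1 with a random replicate block for the pair, and from 0 to 1 with each replicate left out. No ribosomal protein clone was called in any of these settings. In the test of Cy5 against Cy3 on the control pairs, 0 clones were higher and 0 lower with median centring or without normalisation, and 8 were higher with 50 added, when 1 ribosomal protein clone, of Rps25, was called (limma adjusted p = 0.0489). The median control ratio was 0.28 and 0.27 (large and small subunit) with median centring and 0.21 and 0.20 with none. With lowess within 6 parts of the clone order, chosen after seeing the data, the SD within a gene was 0.19. Without clones numbered above 13000, also chosen after seeing the data, 66.7% of large and 81.8% of small subunit spots were higher. Over all clones these shares were 42.9% and 68.8%, and with each treated replicate left out they ran from 40.6% to 46.9% and from 61.1% to 76.9%, and the medians with either control replicate left out ran from -0.01 to 0.11 and from -0.03 to 0.06.

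Of 86 settings for 7 named clones, Cy3 alone left aside, 78 kept the direction and 8 reversed it, and none brought a clone past the threshold. Rpsa clone 4698 was at -0.18 with the spread scaled, Rpsa clone 14956 at 1.36 with Cy5 alone and Rpl3 clone 14859 at 0.25 with the spread scaled. Rpl5 clone 7840 was at -0.53 with median centring, -0.070 with no normalisation, -0.23 with the spread scaled and -0.17 with no replicate block, and from -0.17 to 0.39 with each replicate left out. The cause of these reversals was not tested. With Cy3 alone, which holds no treated sample, Rpsa clones 4698 and 14956 were at -0.12 and 2.14 and Rpl30 clone 10457 at -0.14. The random replicate block was not run for clones without a value in all 5 pairs.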

Other observations

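Some clones of 1 ribosomal protein gene were placed at a fixed spacing in the deposited table. Of the 228 pairs of clones of 1 gene, 42 (18.4%) had clone numbers that differ by a multiple of 325, against 177 of 3998 pairs (4.43%) over all genes with 1 symbol. The spacing was noticed after the values were seen. The number 325 was taken from the most common gaps between these same ribosomal protein clones, and their pairs are among the 3998. The excess over all genes therefore cannot be read as a trait of these genes. The clones 228, 553, 1528 and 1853 of Rpsa are an example, and 228, 1528 and 1853 were listed higher on treated pair 1. The SD between such clones in the mean control pair ratio was 0.17, against 0.23 for the other pairs of ribosomal protein clones, and 0.17 against 0.22 over all genes.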
